A study of Saccharomyces cerevisiae with 51 samples.

Results

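Transcripts of 49 genes that copy the chromosomes and hold the copies together were followed in budding yeast (Saccharomyces cerevisiae) through the metabolic cycle and during rapamycin treatment. The genes were taken from a fixed list of replication and cohesion genes. Each was matched by its systematic name, and all 49 were found among the 6840 genes of the cycle data and the 6821 of the rapamycin data. They were sorted into 6 roles: 11 genes of origin licensing, 11 of origin firing, 8 of the DNA polymerases and primase, 11 of the sliding clamp, its loaders, the single-strand binding protein RPA and CTF4, 4 of strand maturation and nucleotide supply, and 4 of cohesin.

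The cycle samples came from continuous cultures of the strain CEN.PK, as wild type or with ARP5 replaced by a KAN cassette (arp5∆), with no other allele or agent named. The Arp5 protein belongs to INO80, a chromatin remodeller that slides nucleosomes along DNA. Each genotype was sampled at 6 phases: RC start, RC mid, OX mid, OX late, RB start and RB late, for reductive charging, oxidative and reductive building. Each combination had 2 RNA libraries, A and B, prepared separately from 1 culture. They are technical replicates, so the p-values of the cycle measure technical spread and each genotype rests on 1 culture. The comparison averaged over the phases is an exception: its p-values measure the spread of the genotype difference between phases. ATAC libraries, which measure how open the chromatin is, numbered 12 for each genotype. The rapamycin samples came from asynchronous BY4741 cultures, sampled as a control and after 45 or 90 min of 30 nM rapamycin, which inhibits the growth-promoting kinase TORC1. Each of these 3 groups had 2 biological replicates.

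Replication begins at origins bound by the origin recognition complex (ORC). CDC6 helps load the MCM helicase there, which licenses the origin. Kinases and the CDC45, SLD and GINS proteins then start the helicase, and the polymerases follow behind the clamp POL30 (PCNA). Many of these genes are known targets of the MBF factor (Mbp1 with Swi6) at the entry into S phase, while CDC6 and MCM genes are known to be transcribed earlier, at the end of mitosis. In cycling yeast cultures, DNA replication is known to be kept away from the phase of high oxygen use.

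RNA levels are given as FPKM, fragments per kilobase of gene and per M reads with a scaling factor per library. Depths recovered from the low values ran from 5.03 to 9.70 M reads on genes in the cycle libraries and from 9.45 to 13.6 M in the rapamycin libraries. A and B differed by at most 0.57 on the log2 scale for any of the 49 genes (PSF1 at RB start in arp5∆). CDC6 was the least sampled, at 10 to 88 reads per cycle library, and every other gene had at least 47. ARP5 read 46.4 to 55.7 FPKM in the wild-type libraries, and in arp5∆ it was listed at 0 in 11 libraries and at 0.0649 in the other. LEU2 and MET17, which BY4741 lacks, had group means of at most 0.0907 FPKM in the rapamycin data. The labels give no mating type. Markers of both mating types were read in the cycle, where all 4 alpha-cell and all 5 a-cell genes listed averaged at least 1 FPKM. The same held in the BY4741 data. The alpha-factor gene MF(ALPHA)1 read between 22.8 FPKM (lowest wild-type phase mean) and 720 FPKM (highest arp5∆ phase mean), against at most 1.33 FPKM in BY4741 group means. By the cycling test given below, 2 of 4 alpha-cell genes were called in wild type and 1 of 4 in arp5∆. All 5 a-cell genes (MFA1, MFA2, STE2, STE6 and BAR1) were called in both genotypes, against 62.1% and 32.3% of all genes. No mating type is assigned from these markers, and their part in the results was not tested. In bulk samples, fewer cells in S phase and less RNA per cell cannot be told apart.

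In wild type most of the genes peaked at OX late or OX mid. The highest phase mean was at OX late for 27 of 49 genes, against 7.22% of all 6510 genes tested. It was at OX mid for 17 of 49, against 37.1% of all genes. Licensing genes made up 8 of those 17, among them all 6 ORC genes, MCM3 and MCM6. Of the polymerase and primase genes, 7 of 8 peaked at OX late, as did 4 of 4 maturation and nucleotide genes, 7 of 11 clamp, loader and RPA genes, 3 of 4 cohesin genes and 5 of 11 firing genes. MCM7 and CDC6 peaked at RC mid, CTF18 and SMC1 at RB start, and PSF3 at RB late. Neighbouring phases were often close, and a peak phase is given as a description with no test.

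**Figure D1:**
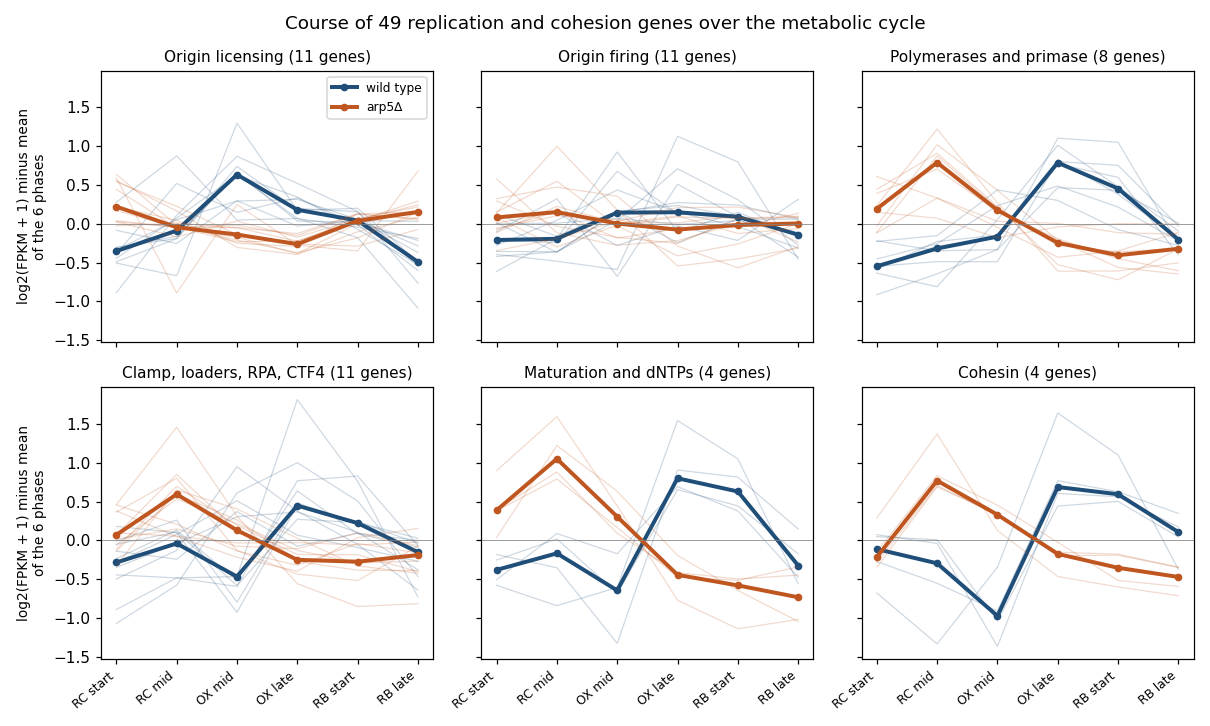
Each panel shows 1 role, with the phase on the x axis and log2(FPKM + 1) minus that gene's mean over its 6 phases on the y axis. Thin lines are genes (means of A and B) and thick lines are medians, in blue for wild type and orange for arp5∆. In wild type the licensing median peaks at OX mid and those of polymerases, clamp, maturation and cohesin at OX late. The firing median is nearly level between these phases. In arp5∆ every median but that of licensing peaks at RC mid, that of firing at only 0.15.

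A call of cycling needed an adjusted p under 0.05 in the F test over the phases (limma, Benjamini-Hochberg over all genes) and a range of phase means of at least 1 on the log2 scale, a 2-fold change. In wild type 32 of 49 genes met it, or 65.3%, against 62.1% of all genes. The median range was 1.20, against 1.34 over all genes, so the width of the cycle in these genes was near that of other genes. The calls took in 7 of 11 licensing genes, 5 of 11 firing genes, 5 of 8 polymerase and primase genes, 7 of 11 clamp, loader and RPA genes, 4 of 4 maturation and nucleotide genes and 4 of 4 cohesin genes. Of the 17 members not called, 16 had an adjusted p under 0.05 and a range under 2-fold, and DBF4 had an adjusted p of 0.20.

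MCD1 (YDL003W, chromosome IV, 444683 to 446383), the cohesin subunit cut at anaphase, had the widest range. In wild type it read 16.5 and 15.6 FPKM at RC start, 9.13 and 10.5 at RC mid, 18.7 and 22.4 at OX mid, 82.9 and 85.4 at OX late, 56.6 and 58.5 at RB start, and 19.1 and 21.0 at RB late. In arp5∆ the same series was 22.2 and 21.2, 49.2 and 45.1, 19.0 and 19.6, 12.9 and 12, 11.1 and 11.4, and 10.7 and 9.90. The wild-type libraries were highest at OX late and the arp5∆ libraries at RC mid, where wild type was lowest. The peak was 8.56 times the trough in wild type, a range of 2.98 on the log2(FPKM + 1) scale, and the range in arp5∆ was 2.09.

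IRR1 (YIL026C, chromosome IX, 304477 to 307929), another cohesin subunit, differed from MCD1 in where it was lowest. Its wild-type libraries read 18.9 and 16.9 FPKM at RC start, 15.3 and 17.6 at RC mid, 6.20 and 5.69 at OX mid, 26.5 and 26.0 at OX late, 23.9 and 27.0 at RB start, and 18.2 and 20.2 at RB late. In arp5∆ they read 15.8 and 16.3, 32.6 and 33.3, 24.8 and 25.2, 16.6 and 17.7, 17.0 and 17.4, and 15.4 and 15.2. The dip at OX mid in wild type was absent from arp5∆, where OX mid was the next to highest phase. SMC1 and SMC3, the paired ATPase arms of the cohesin ring, had the same dip, to phase means of 8.17 and 10.9 FPKM, from peaks of 25.6 and 37.0 FPKM.

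POL30 (YBR088C, chromosome II, 424990 to 425766) encodes the sliding clamp. In wild type it read 58.7 and 55.4 FPKM at RC start, 73.5 and 78.4 at RC mid, 80.4 and 73.4 at OX mid, 382 and 373 at OX late, 182 and 181 at RB start, and 66.6 and 61.3 at RB late. In arp5∆ it read 105 and 116, 226 and 216, 96.3 and 102, 48.6 and 59.4, 40.7 and 46.8, and 42.1 and 47.7. Wild type held a sharp peak at OX late, and arp5∆ a lower one at RC mid. RFC5 (YBR087W, chromosome II, 423765 to 424829), a subunit of the clamp loader, lies next to POL30 with 160 bases between them. The strand setting of the counting is not known from the sources used here. Reads past the end of either gene could therefore be counted to the other, which was not tested. RFC5 read 18.9 and 21.1 FPKM at RC start, 29.0 and 28.0 at RC mid, 64.7 and 68.0 at OX mid, 91.4 and 83.1 at OX late, 55.9 and 67.7 at RB start, and 30.5 and 31.2 at RB late in wild type. In arp5∆ its series was 30.5 and 32.8, 41.0 and 45.5, 22.7 and 21.7, 16.4 and 19.3, 17.4 and 16.1, and 23.0 and 23.2. RFC5 was thus already high at OX mid in wild type, where POL30 was not.

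RNR1 (YER070W, chromosome V, 298950 to 301616) is the large subunit of ribonucleotide reductase, which makes deoxynucleotides. Its wild-type libraries read 29.7 and 29.7 FPKM at RC start, 24.9 and 24.3 at RC mid, 29.2 and 29.0 at OX mid, 135 and 131 at OX late, 93.6 and 94.6 at RB start, and 29.6 and 30.7 at RB late. In arp5∆ they read 71.1 and 69.5, 115 and 114, 50.9 and 51.1, 23.2 and 19.7, 16.7 and 16.0, and 17.6 and 18.1. Its range was wider in arp5∆ (2.74) than in wild type (2.39). CDC21 (YOR074C, chromosome XV, 466675 to 467589), thymidylate synthase, read 28.7 and 29.2 FPKM at RC start, 26.5 and 24.7 at RC mid, 12.5 and 12.5 at OX mid, 61.1 and 64.5 at OX late, 60.2 and 57.5 at RB start, and 35.3 and 38.0 at RB late in wild type. In arp5∆ it read 34.7 and 35.3, 86.3 and 76.1, 51.9 and 55.2, 31.1 and 28.3, 21.9 and 21.0, and 15.6 and 16.4. Its lowest wild-type phase, OX mid, was the next to highest in arp5∆.

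POL1 (YNL102W, chromosome XIV, 430087 to 434493), the catalytic subunit of polymerase alpha that extends primers, read 3.67 and 4.30 FPKM at RC start, 5.10 and 4.88 at RC mid, 6.09 and 6.83 at OX mid, 20.1 and 18.2 at OX late, 18.0 and 18.9 at RB start, and 6.95 and 6.71 at RB late in wild type. In arp5∆ it read 11.3 and 9.77, 22.4 and 21.2, 10.1 and 11.6, 5.21 and 5.61, 5.27 and 5.56, and 5.91 and 5.90. Its wild-type plateau spanned OX late and RB start, while arp5∆ peaked at RC mid alone. DPB2 (YPR175W, chromosome XVI, 888974 to 891043), a subunit of polymerase epsilon, read 5.91 and 5.64 FPKM at RC start, 4.52 and 5.52 at RC mid, 11.3 and 8.73 at OX mid, 19.9 and 20.6 at OX late, 13.3 and 14.0 at RB start, and 7.80 and 10.1 at RB late in wild type. In arp5∆ it read 10.5 and 9.92, 12.4 and 13.6, 9.44 and 7.68, 6.53 and 6.44, 5.19 and 5.33, and 4.76 and 4.48. POL2, the catalytic subunit of polymerase epsilon, POL12 of polymerase alpha and PRI2, the large primase subunit, also peaked at OX late in wild type, at 12.9, 25.0 and 90.5 FPKM. The small primase subunit PRI1 did not join them: it peaked at OX mid and its range was 0.72.

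ORC3 (YLL004W, chromosome XII, 141073 to 142923), a subunit of the origin recognition complex, showed the earlier peak of the licensing genes. In wild type it read 8.95 and 7.57 FPKM at RC start, 6.99 and 7.50 at RC mid, 29.7 and 32.9 at OX mid, 15.0 and 12.7 at OX late, 12.3 and 16.1 at RB start, and 8.50 and 8.18 at RB late. In arp5∆ it read 10.3 and 10.3, 10 and 11.2, 9.93 and 10.3, 8.53 and 9.23, 11 and 10.9, and 12.1 and 13.3. The arp5∆ series was nearly flat, with a range of 0.47 against 1.97 in wild type. The other ORC genes had wild-type ranges from 0.55 (ORC1) to 1.23 (ORC5), of which ORC4 and ORC5 were called. Among the helicase genes, MCM3 had a wild-type range of 1.76, MCM6 of 1.15 and MCM7 of 1.12, all called, and MCM2 one of 0.69.

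CDC6 (YJL194W, chromosome X, 69338 to 70879) is the helicase loader. In wild type it read 7.42 and 5.22 FPKM at RC start, 11.4 and 8.72 at RC mid, 5.63 and 4.74 at OX mid, 5.18 and 5.35 at OX late, 4.14 and 4.41 at RB start, and 1.34 and 2.37 at RB late. In arp5∆ it read 4.80 and 5.76, 1.35 and 1.13, 4.45 and 3.47, 2.43 and 2.43, 2.77 and 1.81, and 5.22 and 6.10. CDC6 was lowest in arp5∆ at RC mid, the phase at which it was highest in wild type.

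**Figure D2:**
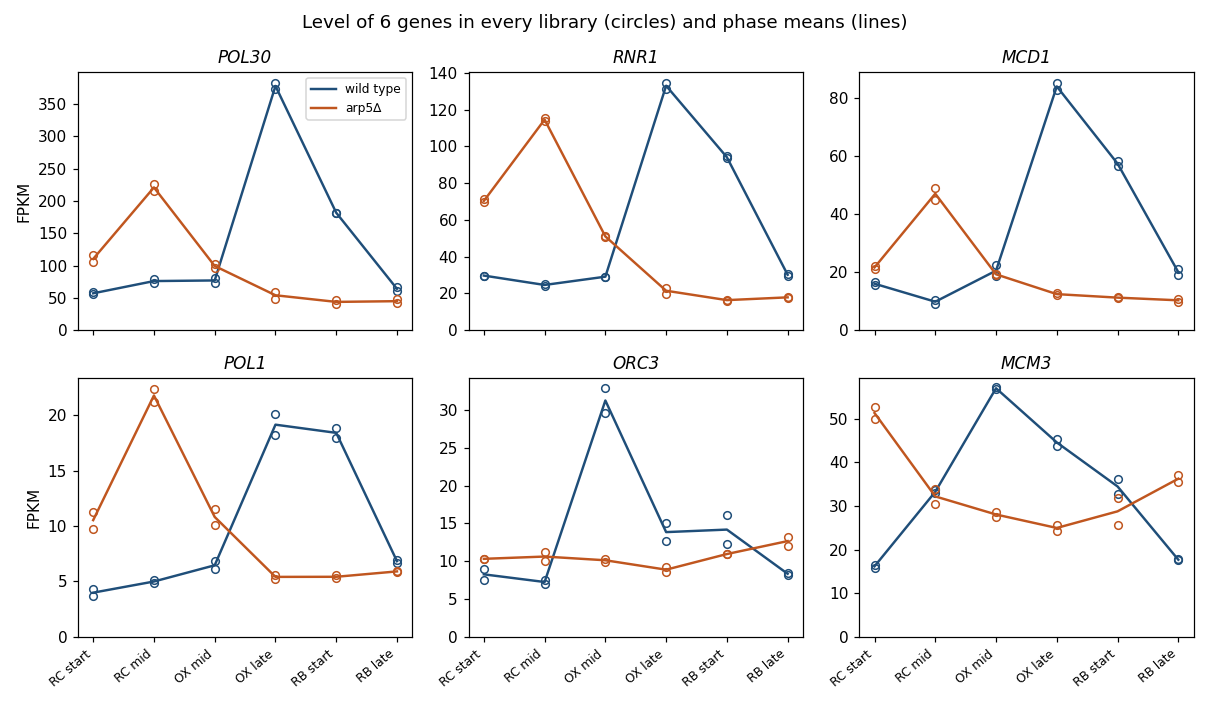
FPKM (y axis, from 0) at each labelled phase (x axis) for 6 genes, with 1 circle for each library and lines through the means of A and B, in blue for wild type and orange for arp5∆. POL30, RNR1, MCD1 and POL1 peak at OX late in wild type and at RC mid in arp5∆, ORC3 peaks at OX mid in wild type alone, and MCM3 peaks at OX mid in wild type and at RC start in arp5∆.

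The steps from phase to phase dated the rises in wild type. Between RC start and RC mid no member was called, against 15.6% of all genes (27 members had an adjusted p under 0.05 with changes under 2-fold). From RC mid to OX mid 9 members were called, against 40.4% of all genes, with 4 higher and 5 lower. ORC3 rose by 1.97 ± 0.12 (log2, SE), RFC5 by 1.19 ± 0.09, MCM10, a helicase activator, by 1.12 ± 0.16 and RFC4 by 1.08 ± 0.12. IRR1 fell by 1.33 ± 0.08, RFA2 by 1.06 ± 0.08, SMC1 by 1.05 ± 0.08 and RFA1 by 1.03 ± 0.06. RFA1 and RFA2 are subunits of RPA. Quantile normalization of the libraries gave 5 calls, with RFC4, RFC5 and SMC1 under 2-fold. MCM10, RFA1, RFA2 and SMC1 each fell short of the 2-fold threshold when a library was left out: wild-type RC mid A for MCM10, RC mid A or OX mid B for RFA1, RC mid B for RFA2 and OX mid B for SMC1.

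More members were called higher from OX mid to OX late than over any other wild-type step. The median change over the 49 genes was 0.25, against 0.31 from RC mid to OX mid. Over the step from OX mid to OX late 19 members were called, or 38.8%, against 27.1% of all genes. Of these 17 were higher, against 12.3% of all genes called higher. POL30 rose by 2.28 ± 0.09 (adjusted p = 3.3e-13), CDC21 by 2.24 ± 0.07 (1.3e-14), RNR1 by 2.15 ± 0.06 (2.7e-15) and MCD1 by 1.99 ± 0.09 (1.3e-12). All 4 cohesin genes and 3 of 4 maturation and nucleotide genes were among the rises. No licensing gene was, and the licensing median was -0.35. ORC3 fell by 1.12 ± 0.12 and MCM10 by 1.03 ± 0.16. MCM10 no longer passed 2-fold without wild-type OX mid library B (-0.97) or OX late library A (-0.97).

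Levels then declined, at first by less than 2-fold for nearly all members. From OX late to RB start 1 member was called, POL30, which fell by 1.05 ± 0.09, against 1.6% of all genes. The median over the members was -0.19, against 0.02 over all genes, and 8 of 49 estimates were above 0. An adjusted p under 0.05 was reached by 21 of 49. From RB start to RB late 6 members (12.2%) were called lower and none higher. Of all genes 17.5% were called, 8.51% of them lower and 9.0% higher as shares of all genes. RNR1 fell by 1.61 ± 0.06, POL30 by 1.49 ± 0.09, MCD1 by 1.48 ± 0.09 and POL1 by 1.31 ± 0.11. CDC45, which joins the helicase at firing, and POL12 were the others. From RB late to RC start 1 member was called, against 4.53% of all genes: CDC6 rose by 1.37 ± 0.22.

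The lowest wild-type phase mean was at OX mid for 13 of 49 genes, against 32.2% of all genes, a share no larger than the background. More members, 15, were lowest at RC start, where 23.9% of all genes were. The 13 held 3 of 4 cohesin genes (SMC1, SMC3, IRR1), all 3 RPA genes, CTF18, CTF4, CDC9 (DNA ligase), CDC21, CDC45, SLD2 and PSF3. At OX mid the 6 ORC genes stood at their highest, and RPA and most of cohesin at their lowest. Such extremes were common at OX mid, where 37.1% of all genes were highest and 32.2% lowest. The split between these genes is a description with no test.

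In arp5∆ none of the genes peaked under the same label as in wild type. This was not counted over all genes. The highest phase mean was at RC mid for 29 of 49 genes, against 15.0% of all genes, and at RC start for 12 of 49, against 32.5%. Of the 27 genes that peaked at OX late in wild type, 24 peaked at RC mid in arp5∆ and 3 at RC start. Of the 17 that peaked at OX mid in wild type, 8 peaked at RC start, 3 at RC mid, 3 at RB late, 2 at RB start and 1 at OX late. All 4 cohesin genes and all 4 maturation and nucleotide genes peaked at RC mid. Nothing in the labels shows whether a phase name marks the same point of the cycle in both cultures.

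Cycling was called in arp5∆ for 23 of 49 genes, or 46.9%, against 32.3% of all genes, with a median range of 0.95 against 0.74 over all genes. Both genotypes had 22 of these genes in common. A further 10 were called in wild type alone, among them ORC3, ORC4, ORC5, MCM6, MCM7, MCM10 and RFC4, and POL32 was called in arp5∆ alone. By role, the calls in arp5∆ took in 4 of 4 cohesin, 4 of 4 maturation and nucleotide, 6 of 8 polymerase and primase and 5 of 11 clamp, loader and RPA genes, but 2 of 11 licensing and 2 of 11 firing genes. The difference in these counts between genotypes was not tested. The licensing genes had a median range of 1.15 in wild type against 0.52 in arp5∆, the maturation and nucleotide genes one of 1.79 against 1.82.

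The range was wider in wild type for 40 of 49 genes, or 81.6%, against 89.1% of all genes. The median ratio of the arp5∆ range to the wild-type range was 0.80, against 0.564 over all genes. Peaks were more often lower in arp5∆. The log2 ratio of the arp5∆ peak to the wild-type peak had a median of -0.20, and ORC3 stood at -1.30. The peak was higher in arp5∆ for 13 of 49 genes. These 2 values were not computed over all genes. Cohesin was the exception among the roles, with a higher peak in arp5∆ for 3 of 4 genes: IRR1 peaked at 33.0 FPKM against 26.2, SMC1 at 34.7 against 25.6 and SMC3 at 52.9 against 37.0. MCD1 went the other way, at 47.1 FPKM against 84.2.

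**Figure D3:**
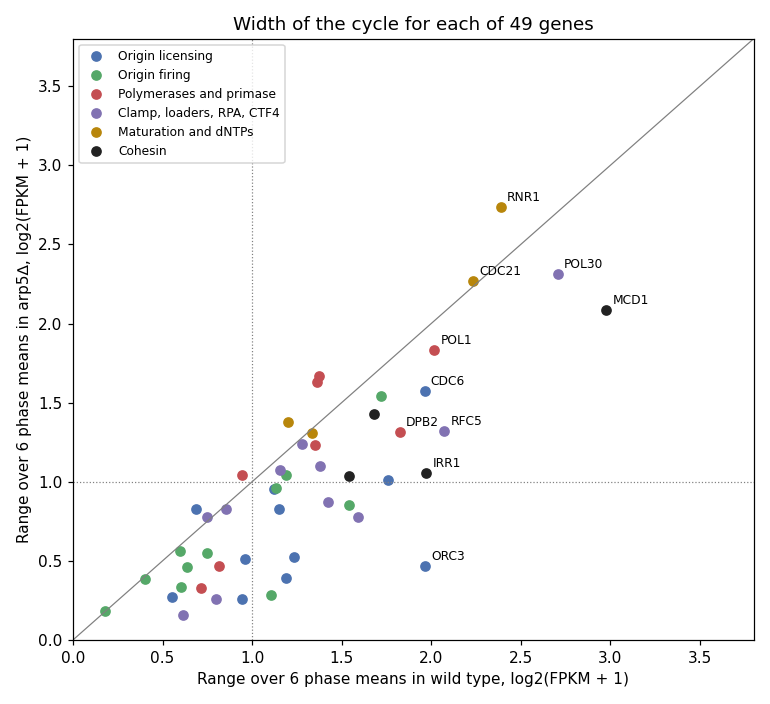
Range over the 6 phase means on the log2(FPKM + 1) scale in wild type (x axis) and in arp5∆ (y axis), with 1 point for each of the 49 genes coloured by role, the line of equality, and dotted lines at the 2-fold threshold. 40 of the 49 points lie under the line of equality, ORC3 farthest among the labelled genes, while RNR1 lies above it.

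The steps in arp5∆ were tested in the same way. From RC start to RC mid 5 members were called, against 13.5% of all genes. Of the members 4 were higher and 1 lower, against 3.38% of all genes called higher and 10.2% called lower. CDC21 rose by 1.19 ± 0.07, MCD1 by 1.09 ± 0.09, PRI2 by 1.05 ± 0.06 and SMC1 by 1.03 ± 0.08, and CDC6 fell by 1.49 ± 0.22. PRI2 was under 2-fold (0.97) without RC start library A. This count moved with the settings: quantile normalization gave 11 calls, of which 10 were higher, a pseudocount of 0.1 gave 10, and leaving out RC start library B or RC mid library A of arp5∆ gave 8. From RC mid to OX mid 4 members were called, against 4.65% of all genes. MCD1 fell by 1.25 ± 0.09, RNR1 by 1.15 ± 0.06 and POL30 by 1.15 ± 0.09, and CDC6 rose by 1.14 ± 0.22.

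Later steps in arp5∆ were small until the return to RC start. From OX mid to OX late 1 member was called, against 1.34% of all genes: RNR1 fell by 1.22 ± 0.06, and leaving out OX late library B of arp5∆ gave 2 calls. From OX late to RB start no member was called, against 0.507% of all genes (15 had an adjusted p under 0.05). From RB start to RB late 1 member was called, against 2.35% of all genes: CDC6 rose by 1.03 ± 0.22, and this call was lost without RB start library B or RB late library B. From RB late to RC start 4 members (8.16%) were called, all higher, against 10.3% of all genes called and 6.71% called higher. RNR1 rose by 1.92 ± 0.06, POL30 by 1.28 ± 0.09, CDC21 by 1.08 ± 0.07 and MCD1 by 1.00 ± 0.09. MCD1 fell short of 2-fold without RC start library A or RB late library B, at 0.97 and 0.95.

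The course over the phases differed between genotypes for 40 of 49 genes, or 81.6%, against 74.0% of all genes (F test of the interaction, with the genotype difference spanning at least 1 over the phases). The median span was 1.83, against 1.81 over all genes. MCD1 spanned 4.82 (adjusted p = 1.3e-15), RNR1 4.75 (1.2e-18), POL30 4.32 (4.2e-15), POL1 3.58 (6.4e-13) and CDC6 3.54 (5.7e-07). By role, the calls took in 10 of 11 licensing genes, 6 of 11 firing genes, 7 of 8 polymerase and primase genes, 9 of 11 clamp, loader and RPA genes, and all 8 of the last 2 roles. SLD3, DPB11, CDC7, DBF4, PSF3, PRI1 and RFC2 were called in no comparison at all. CDC7 and DBF4 form the kinase that fires origins, and DBF4 had the smallest wild-type range, 0.18, with phase means from 35.2 to 40 FPKM.

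Under the labels as given, few members were called at the charging phases, and most of those were higher in arp5∆. At RC start 5 members were called, or 10.2%, against 36.1% of all genes. All 5 were higher in arp5∆, against 19.2% of all genes called higher, a larger share than among the members. MCM3 was higher by 1.61 ± 0.08, MCM10 by 1.55 ± 0.16, RNR1 by 1.21 ± 0.06, POL1 by 1.21 ± 0.11 and MCM6 by 1.07 ± 0.07, and MCM3, MCM10 and RNR1 were the 3 calls left after quantile normalization. At RC mid 10 members were called, or 20.4%, against 21.0% of all genes. Of these 9 were higher, against 9.92% of all genes called higher. RNR1 was higher by 2.17 ± 0.06 (adjusted p = 2.8e-15), MCD1 by 2.15 ± 0.09 (6.3e-13), POL1 by 1.93 ± 0.11 (7e-11) and SMC3 by 1.83 ± 0.09 (4.2e-12). CDC6 was lower in arp5∆, with a log2 difference of -2.29 ± 0.22 (8.3e-08). At OX mid 10 members were called, against 43.7% of all genes, with 6 higher and 4 lower, or 5 higher and 6 lower after quantile normalization. CDC21 was higher by 2.01 ± 0.07, IRR1 by 1.91 ± 0.08, SMC3 by 1.81 ± 0.09 and SMC1 by 1.62 ± 0.08. RFC4 (-1.54 ± 0.12), RFC5 (-1.54 ± 0.09), ORC3 (-1.54 ± 0.12) and PSF2 (-1.24 ± 0.10), a GINS subunit, were lower.

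At OX late and RB start every member called was lower in arp5∆. At OX late 19 members were called, or 38.8%, against 28.2% of all genes. All 19 were lower in arp5∆, against 13.5% of all genes called lower. POL30 was lower by a log2 difference of -2.79 ± 0.09 (adjusted p = 1.5e-14), MCD1 by -2.66 ± 0.09 (1.9e-14), RNR1 by -2.58 ± 0.06 (1.3e-16) and RFC5 by -2.23 ± 0.09 (5.5e-13). No licensing gene was among them. The median over the 49 genes was -0.69, against -0.01 over all genes. At RB start 16 members were called, against 18.7% of all genes, and all 16 were lower, against 8.69% of all genes called lower. RNR1 (-2.45 ± 0.06), MCD1 (-2.26 ± 0.09), POL30 (-2.03 ± 0.09) and PRI2 (-1.98 ± 0.06) differed most. At RB late 5 members were called, against 22.2% of all genes. PRI2 (-1.50 ± 0.06), CDC21 (-1.15 ± 0.07) and RFA3 (-1.09 ± 0.07) were lower, and CDC6 (1.24 ± 0.22) and ORC4 (1.05 ± 0.13) were higher. After quantile normalization all 5 calls at RB late were lower ones, RFA3 (-0.92) not among them. CDC6 and ORC4 were also under 2-fold, at 0.98 and 0.83, without wild-type RB late library A. These contrasts share libraries with the steps above.

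Since the members peaked under different labels in the cultures, the peak phases were set against each other, in 2 contrasts chosen after the data had been seen. The phases were picked for these genes' peaks, so no support is drawn from them. For arp5∆ at RC mid minus wild type at OX late, 2 members were called, against 12.9% of all genes. CDC6 had a difference of -1.49 ± 0.22 and PSF1, a GINS subunit, one of -1.10 ± 0.17. PSF1 was under 2-fold (-0.97) without arp5∆ RC mid library A. For arp5∆ at RC start minus wild type at OX mid, 7 members were called, against 24% of all genes, with 4 higher and 3 lower, and quantile normalization left 4. CDC21 was higher by 1.41 ± 0.07, IRR1 by 1.30 ± 0.08, RNR1 by 1.24 ± 0.06 and SMC3 by 1.21 ± 0.09. ORC3 (-1.51 ± 0.12), SLD5 (-1.07 ± 0.15), a GINS subunit, and RFC5 (-1.04 ± 0.09) were lower.

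Averaged over the 6 phases, the level of these genes was not called different between genotypes. With the phase as the unit, limma called 0 of 49 members and gave none an adjusted p under 0.05, against 1.52% of all genes called, while 1017 of 6510 genes had an unadjusted p under 0.05. PRI2 came nearest to 2-fold, with a difference of -1.03, followed by PSF1 at -0.93. The median over the members was -0.20. The p-values here measure the spread of the genotype difference between successive phases of 1 culture a genotype. That difference spanned at least 1 in the 40 of 49 genes whose course differed between genotypes, which widens the spread. A p that misses the threshold does not show that the levels were alike.

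With rapamycin a subset of the genes was lower, at the later time. At 45 min no member passed both thresholds, against 24.9% of all genes. An adjusted p under 0.05 with a change under 2-fold was found for 31 of 49. Over all genes 4676 of 6333 had an unadjusted p under 0.05. At 90 min 11 members were called, or 22.4%, against 35.0% of all genes. All 11 were lower, against 16.8% of all genes called lower. The median over the 49 genes was -0.57, against 0.02 over all genes, and 43 of 49 estimates were below 0. Of the 11, 6 were among the 27 genes that peaked at OX late in the wild-type cycle and 4 among the 17 that peaked at OX mid. Leaving out control library 2 or 45 min library 3 gave 1 call at 45 min.

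RNR1 fell furthest. Its control libraries read 269 and 257 FPKM, those at 45 min 179 and 181, and those at 90 min 66.6 and 67.7, with no overlap between groups. The log2 change at 90 min was -1.95 ± 0.05 (adjusted p = 4.4e-08). POL30 read 69.5 and 60.7 FPKM in the controls, 41.6 and 45.1 at 45 min, and 17.4 and 21.8 at 90 min (-1.68 ± 0.12, adjusted p = 7.4e-06). ORC1, the ATPase subunit of ORC, read 39.6 and 37.8 FPKM in the controls, 19.9 and 18.6 at 45 min, and 11.9 and 11.2 at 90 min (-1.66 ± 0.08, 1e-06). ORC1 had already come close to 2-fold at 45 min, at -0.97 ± 0.08. RFC5 read 79.8 and 88.0 FPKM in the controls, 54.5 and 54.6 at 45 min, and 30.9 and 28.8 at 90 min (-1.46 ± 0.07, 9.8e-07). MCD1, ORC2, RFC1, CDC45, POL1, RFC4 and CDC6 were the other falls, from -1.39 for MCD1 to -1.0 for CDC6.

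Between 45 and 90 min 5 members (10.2%) were called, all lower, against 11% of all genes called and 4.69% called lower. RNR1 fell by 1.41 ± 0.05, CDC21 by 1.22 ± 0.07, MCD1 by 1.12 ± 0.05, POL30 by 1.11 ± 0.12 and CDC6 by 1.06 ± 0.10. CDC21 turned within the course: it read 65.1 and 65.4 FPKM in the controls, 96.1 and 95.9 at 45 min, and 38.0 and 43.3 at 90 min. Its libraries at 45 min were above, and those at 90 min below, both controls. Against the control CDC21 was called at neither time, both changes being under 2-fold. POL30 was under 2-fold (-0.96) without 90 min library 5. The 3 rapamycin contrasts share libraries.

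**Figure D4:**
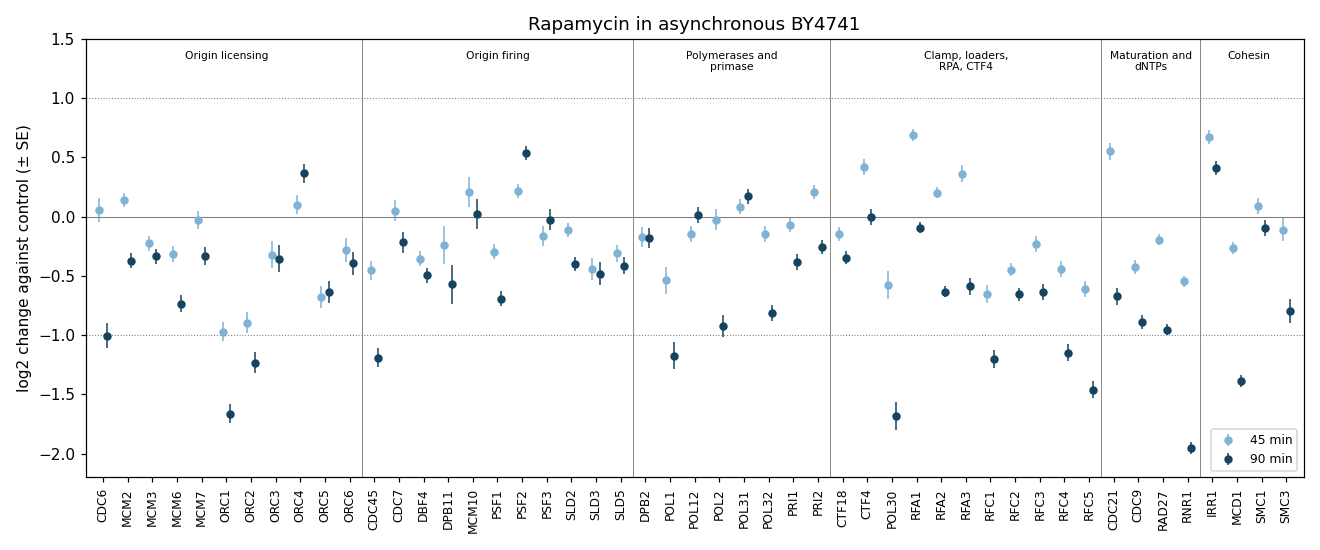
Log2 change of FPKM + 1 against the control (y axis) for each of the 49 genes (x axis, grouped by role) at 45 min (light) and 90 min (dark) in rapamycin, with error bars of 1 SE from the limma fit on 2 replicates a group and dotted lines at 2-fold. At 45 min every point lies within the dotted lines, and at 90 min 11 points lie below the lower line, RNR1 lowest.

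In the ATAC data most differences at these genes were under 2-fold. The data name the genotype of each library but not its phase, so the 12 libraries a genotype mix all 6 phases and come from 1 culture each. A signal was given for 47 of the 49 genes, POL1 and POL2 having none. Against 2.58% of all 5193 genes, 1 of 47 was called: RFC1, the largest subunit of the clamp loader. An adjusted p under 0.05 was reached by 32 of 47. Small differences were common in this contrast: 3631 of all 5193 genes had an unadjusted p under 0.05. The RFC1 signal had a lowest, median and highest value of 40.7, 51.3 and 72.5 in wild type and 88.7, 112 and 136 in arp5∆, without overlap. The log2 difference was 1.06 ± 0.08 (adjusted p = 2e-12). RFC1 RNA was called in none of the genotype contrasts: its estimates ran from -0.13 at OX mid to 0.57 at RC mid. At the other end, POL31 had a difference of -0.78 and MCD1 one of -0.59. The median over the 47 genes was -0.11, against -0.02 over all genes.

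**Figure D5:**
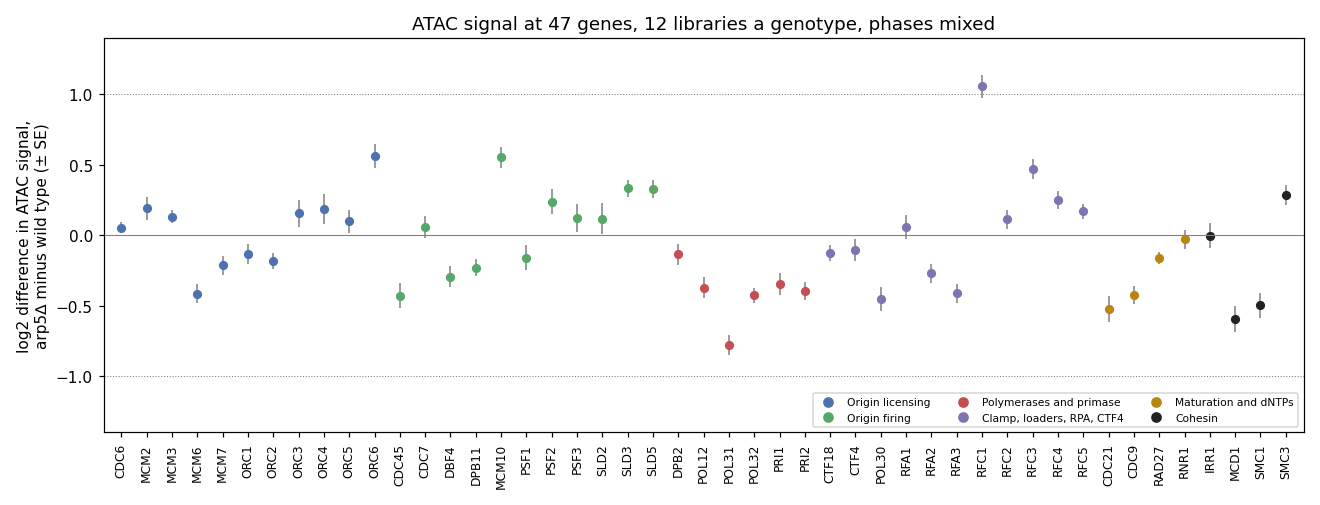
Log2 difference in deposited ATAC signal, arp5∆ minus wild type (y axis, with 1 SE from limma), for each of 47 genes (x axis, coloured by role), from 12 libraries a genotype with phases mixed. RFC1 is the only point past the dotted 2-fold lines.

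Other genes of the same tasks were read beside the members. Of 17 further replication genes, 9 cycled in wild type (62.1% of all genes did) and 12 had a genotype-dependent course (74.0% of all genes), shares no larger than the background. MCM5, a helicase subunit, peaked at OX mid in wild type (61.9 FPKM) and at RC start in arp5∆ (46.4), while MCM4 had a range of 0.30. ELG1, an unloader of the clamp, had a range of 1.76 and the fork protein CSM3 one of 1.63, both with peaks at OX late in wild type and RC mid in arp5∆. With rapamycin, DPB4, a subunit of polymerase epsilon, was called lower by -1.44 at 45 min and -2.0 at 90 min. TAH11 (Cdt1), which loads the helicase with CDC6, was called higher at 90 min, by 1.08, when CDC6 was lower.

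All 7 nucleotide genes outside the list cycled in wild type, against 62.1% of all genes. CDC8, thymidylate kinase, peaked as RNR1 did, at OX late in wild type (117 FPKM) and at RC mid in arp5∆ (73.1). DCD1, a dCMP deaminase, had a range of 3.14 with its peak at OX mid. RNR2, a small subunit of ribonucleotide reductase, peaked at RC mid in wild type at 1078 FPKM, when RNR1 was lowest. Of 8 further cohesion genes, 6 cycled in wild type, again against 62.1% of all genes. PDS5, which holds cohesin on DNA, had a range of 2.16 and peaked like MCD1 at OX late in wild type (30.3 FPKM) and at RC mid in arp5∆ (34.5). SCC2, the cohesin loader, was called lower at 90 min of rapamycin by -1.31 and SGO1, a protein of the centromere, by -1.77.

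Markers of cell cycle stage were read in the same libraries. The S-phase cyclin genes CLB5 and CLB6 and the G1 cyclin gene CLN2 peaked at OX late in wild type, at 44.7, 9.11 and 66.4 FPKM. In arp5∆ the highest phase mean of CLB6 was 1.11 FPKM. For the 5 G1 and S cyclin genes listed, arp5∆ at RC mid minus wild type at OX late had a median of -0.21. That contrast called 1 of the 5, which was lower, against 12.9% of all genes called. Cycling was called for 5 of 5 in wild type and 2 of 5 in arp5∆, against 62.1% and 32.3% of all genes. All 8 core histone genes cycled in both genotypes, against 62.1% of all genes in wild type and 32.3% in arp5∆. In wild type 6 of 8 were highest at RB start, where 27 of the 49 members were highest at OX late. None of the 8 was called from OX late to RB start (median 0.36), so this order is a description. In arp5∆ 7 of 8 were highest at OX late, and none was called from OX mid to OX late (median 0.19). All 6 mitotic genes cycled in wild type with their peak at RC start, SWI5 with the widest range (2.94), and 1 of 6 (CLB1) cycled in arp5∆. At 90 min of rapamycin 6 of 8 histone genes, 3 of 6 mitotic genes and 2 of 5 cyclin genes (CLB5, CLB6) were called lower. The share of all genes called lower was 16.8%. Of the START regulators, SWI4 peaked at OX late in wild type (19.9 FPKM) and RC mid in arp5∆ (13.5), and the MBF subunit gene MBP1 had a range of 0.85 in wild type. Of 8 checkpoint genes, 4 cycled in wild type, a smaller share than of all genes: RAD17 (1.87), RAD53 (1.56), DUN1 (1.52) and RAD9 (1.42).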

How the data were processed

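RNA was measured in 24 cycle and 6 rapamycin libraries and chromatin in 24 ATAC libraries. The authors deposited FPKM values for the RNA, in 1 table for the cycle and 1 for rapamycin, and a normalized ATAC signal per gene, whose window, scaling and depth are not given in the sources used here. The submitters' processing notes name Bowtie2, DESeq2, Picard and sacCer3. Tests were made within a table. The rapamycin control, whose treatment text names rapamycin, was used as its title says. Gene positions come from RefSeq (assembly R64, the same sequence as sacCer3). No member overlaps another gene of that table.

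Low FPKM values fell on whole multiples of 1 read for 96.25% to 98.67% of them in the cycle and 95.48% to 97.01% in the rapamycin libraries (tolerance 0.1 read), which gave the depths. Count tests were not run. The log2(FPKM + 1) values of genes averaging 1 FPKM or more (6510 in the cycle, 6333 with rapamycin) were tested in R 4.3.3 with limma 3.58.1 (2-sided, intensity trend). This scale understates changes of low genes. Genes were called at an adjusted p under 0.05 (Benjamini-Hochberg over all genes) together with a log2 change of 1 or more. The cycle contrasts came from 1 fit of 12 groups, the comparison over the cycle from 12 means with phase as a block, and the ATAC contrast from log2(signal + 1). The steps were tested on simulated data. Alternatives were another pseudocount, no filter, quantile normalization, a replicate block, and libraries or phases left out. A search for promoter motifs was planned and not run, and no sequence was analysed here.

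The members and lists were chosen with earlier results of these data known. Values in every library are given for the 10 members with the widest wild-type range, values per contrast for the 4 largest rises and falls called, and up to 3 genes a direction from each further list. Others named were chosen after their values were seen.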

Additional observations from a re-analysis of the deposited data

Results flagged for a closer look

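The course over the labelled phases differed between genotypes for 40 of 49 genes, by the F test of the interaction. The genotype difference spanned 4.82 on the log2 scale for MCD1, 4.75 for RNR1, 4.32 for POL30, 3.58 for POL1, 3.54 for CDC6, 3.42 for CDC21, 3.15 for CDC45, 2.87 for RFC5, 2.72 for DPB2 and 2.61 for MCM3. The share of all genes that passed the same test was 74.0%.

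The response to rapamycin differed between the time points for 5 genes, by the contrast of 90 with 45 min. The log2 difference was -1.41 for RNR1, -1.22 for CDC21, -1.12 for MCD1, -1.11 for POL30 and -1.06 for CDC6. Groups of 2 libraries were too small to look for a library far from the others.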

How the results depend on the processing

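No named gene's difference changed sign under any alternative run, but quantile normalization turned the balance of calls between genotypes at OX mid, from 6 higher and 4 lower to 5 and 6, and at RB late gave 0 higher and 5 lower in place of 2 and 3. Counts of members called that moved by over 1.5 times were these. Quantile normalization gave 3 at RC start between genotypes (5 as reported), 5 for wild type from RC mid to OX mid (9), 11 for arp5∆ from RC start to RC mid (5) and 4 for arp5∆ at RC start minus wild type at OX mid (7). A pseudocount of 0.1 gave 1 for wild type from RC start to RC mid (0), 10 for arp5∆ over the same step (5) and 1 at 45 min of rapamycin (0). Leaving out each library in turn gave 0 to 1 for wild type from RC start to RC mid. For arp5∆ it gave 5 to 8 from RC start to RC mid, 1 to 2 from OX mid to OX late and 0 to 1 from RB start to RB late. It gave 0 to 1 at 45 min of rapamycin and 1 to 3 for arp5∆ at RC mid minus wild type at OX late. The count over the cycle was 0 under every alternative run. The letters A and B do not pair libraries by design, and 8 of 66 pairs of groups had deviations correlated above 0.1. With the letter as a replicate block, cycling was called for 32 members in wild type and 23 in arp5∆ and the interaction for 40, as without it. Depth limits CDC6, at 10 to 88 reads a cycle library.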
